A study of Homo sapiens with 15 samples.

Results

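CXCL12, CXCL16 and MIF are secreted or membrane-bound chemotactic proteins, and the genes described here encode these ligands, the receptors they engage and the proteases that cut them. The group holds 10 of the 58735 genes in the deposited tables and was fixed by name: CXCL12 with its signalling receptor CXCR4, its scavenging receptor ACKR3 and its inactivating peptidase DPP4, CXCL16 with its receptor CXCR6 and its sheddases ADAM10 and ADAM17, and MIF with its receptor CD74. The rule that lists them uses no measured value, but the list was drawn up with earlier results of these data known. CXCL12 holds blood-forming cells and leukemia cells near bone marrow stroma through the G protein-coupled receptor CXCR4, while ACKR3 binds the same ligand and carries it into the cell for degradation. DPP4 removes the amino-terminal residues of CXCL12 that activate CXCR4. CXCL16 is made as a transmembrane protein and becomes a soluble chemoattractant for CXCR6-bearing lymphocytes once ADAM10 or ADAM17 cuts its stalk, and MIF signals through CD74, with CD44 as co-receptor, and can also engage CXCR4.

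RNA was sequenced from HEK293T cells, a human embryonic kidney line carrying SV40 large T antigen, grown without leukemia cells. The groups were a Non-target clone and 4 CKO clones, each with 3 wells (replicates 1 to 3, n = 3), and the clones are listed below by their CXCL12 level, RHBDD2-CKO, MAGI2-CKO, C9orf89-CKO and then MLPH-CKO. Each CKO clone came from lentiviral CRISPR-Cas9 disruption of the named gene followed by limiting dilution, the Non-target clone carried Cas9 with a non-targeting guide, and each gene was represented by 1 clone, so that the disrupted gene and the history of its clone cannot be told apart. The wells of a group share that clone, and p-values measure the spread between wells, which may be technical. All CKO clones were compared with the same Non-target wells, with the aim of describing the features of cells that lost each gene. A change shared by all 4 clones therefore cannot be told apart from a trait of the Non-target clone. The libraries held 15517856 to 19489918 fragments assigned to genes. Replicate 1 stood slightly apart in every group: the SD over genes of the log2 difference between a pair of wells was 0.61 to 0.71 for the 10 pairs with replicate 1 and 0.55 to 0.61 for the 5 pairs of replicates 2 and 3.

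The targeted genes were examined as a check of the labels. CARD19, the current symbol of C9orf89, was at 6.56 ± 1.04 FPKM (fragments scaled to exon length and library depth, mean ± SD, n = 3) in Non-target and at 4.32 ± 0.0421 FPKM in the C9orf89-CKO clone (log2 fold change -0.58, limma adjusted p = 0.000977). The RHBDD2-CKO wells were low as well, with 4.79 ± 0.339 FPKM (-0.44, adjusted p = 0.00489, or 0.0526 with only the 6 libraries compared). RHBDD2 measured 33.5 ± 5.50 FPKM in Non-target wells, 12.4 ± 1.18 FPKM in the clone named for it and 13.8 ± 2.15 FPKM in the MAGI2-CKO clone (log2 fold change -1.42 and -1.27, adjusted p = 7.56e-06 and 1.55e-05). MAGI2 held 50 to 68 fragments per Non-target library and 32 to 55 per MAGI2-CKO library, and MLPH held 0 fragments in all 15 libraries, so the RNA does not check the labels of these 2 clones. CARD19 and RHBDD2 were each lower in the clone named for them but also in a further clone, and neither alone tells its clone from every other. The 6 markers of HEK293T cells listed here all passed the filter on low values, with summed levels of 63.1 to 142 FPKM and VIM, a cytoskeletal filament, as the most abundant. Called at an adjusted p under 0.05 were 5 in MLPH-CKO, all higher (30.1% of all tested genes were called there), LHX1 and NEFM, lower in RHBDD2-CKO (34.1%), VIM, higher, and KRT8, lower, in C9orf89-CKO (26.0%), and VIM and LHX1, higher, and KRT8 and NEFM, lower, in MAGI2-CKO (36.1%). Of 7 markers of U937 leukemia cells none passed the filter on low values, and their summed level was 0.179 to 0.629 FPKM.

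Across the 10 genes, 7 passed the filter of at least 0.5 FPKM in at least 3 libraries, and ACKR3, CXCR6 and CD74 did not. The 7 genes were tested with limma on log2(FPKM + 0.1) among 16175 genes, and log2 fold changes (log2FC) below are on that scale, which understates the change of low genes. At an adjusted p under 0.05 (Benjamini-Hochberg over all tested genes), the C9orf89-CKO clone had 2 of the 7 called, where 26.0% of all tested genes were called. The MAGI2-CKO clone had 5 of 7 called against a background of 36.1%. The MLPH-CKO clone had 3 of 7 called against 30.1% (5 of 7 without replicate 1 of every group, where 36.9% of all tested genes were called), and the RHBDD2-CKO clone had 5 of 7 called against 34.1%. CXCL12 and CXCL16 were higher in all 4 clones, which 3.39% of tested genes were. CXCL12 passed the filter only through the RHBDD2-CKO, MAGI2-CKO and C9orf89-CKO clones, where it was high. DPP4 passed only with C9orf89-CKO, where it was highest. Calls of both genes are among those counted above. CXCR4 rose 11.7-fold in the MAGI2-CKO clone and by a small margin in RHBDD2-CKO, ADAM10 rose in 3 clones, DPP4 fell in 2, and ADAM17 and MIF did not pass the test in any clone. In bulk RNA, fewer expressing cells and less RNA per cell cannot be told apart.

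**Figure D1:**
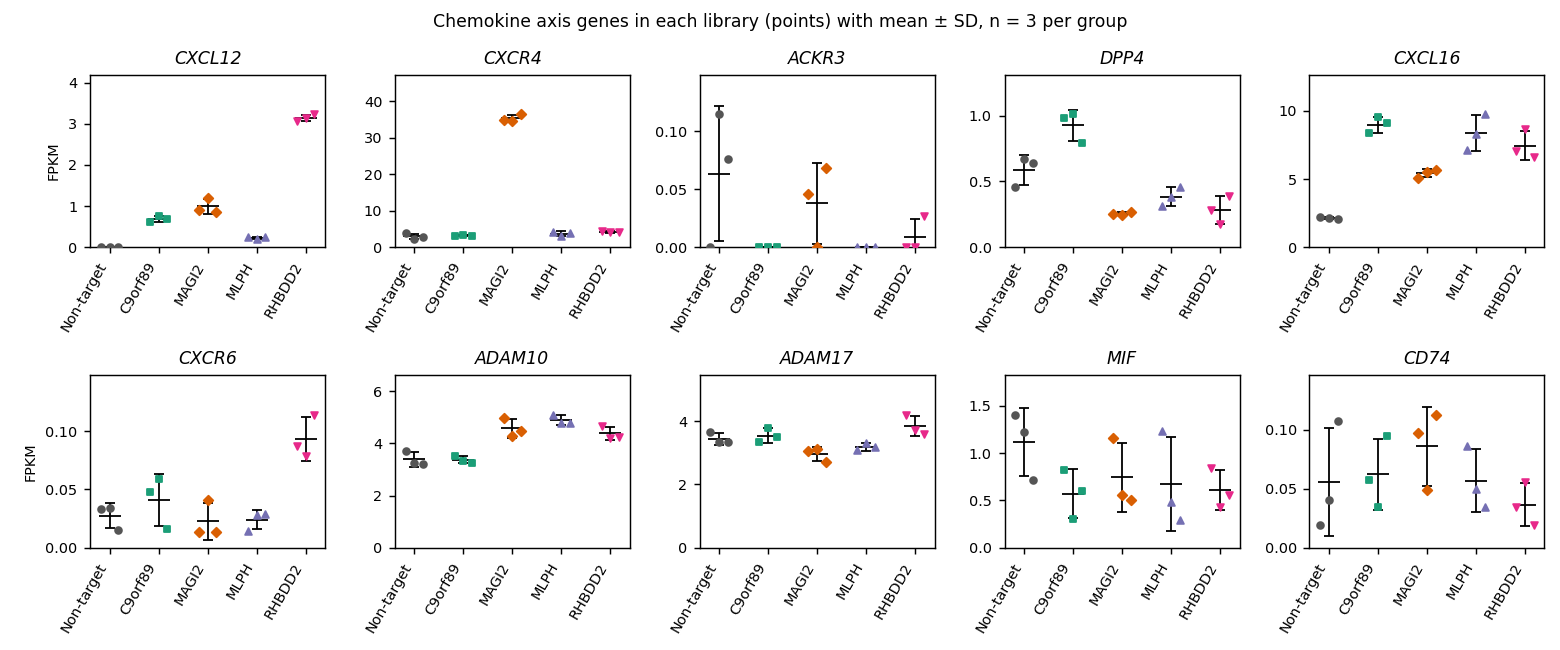
FPKM (vertical axis, linear from 0) of the 10 genes in each library, with points for the 3 wells of a group and a black bar for the mean ± SD. CXCL12 was highest in the RHBDD2-CKO wells at 3.06 to 3.23 FPKM, CXCR4 in the MAGI2-CKO wells at 34.6 to 36.4 FPKM, and ACKR3, CXCR6 and CD74 stayed under 0.12 FPKM throughout.

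The regions before the start sites of CXCL12 and CXCR4, which had the largest changes among the 10 genes, are shown because their mRNA differed most between the clones. The 250 bases before each RefSeq start are given 5′ to 3′ on the strand of the gene, from RefSeq with build GRCh38.p14. They lie at chr10:44385098-44385347 for CXCL12 and chr2:136118150-136118399 for CXCR4, both on the minus strand. The CXCL12 window lies within the GENCODE v29 span of the gene, whose start at 44386493 is further upstream. Capitals mark GC boxes (GGGCGG on either strand, overlapping matches counted) and the TATA box (TATAAA on either strand).
CXCL12: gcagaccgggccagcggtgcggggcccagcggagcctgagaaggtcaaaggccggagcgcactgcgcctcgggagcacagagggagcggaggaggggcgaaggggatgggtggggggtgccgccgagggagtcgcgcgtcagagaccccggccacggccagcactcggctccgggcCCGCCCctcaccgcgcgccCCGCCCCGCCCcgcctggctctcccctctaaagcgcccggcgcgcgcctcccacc
CXCR4: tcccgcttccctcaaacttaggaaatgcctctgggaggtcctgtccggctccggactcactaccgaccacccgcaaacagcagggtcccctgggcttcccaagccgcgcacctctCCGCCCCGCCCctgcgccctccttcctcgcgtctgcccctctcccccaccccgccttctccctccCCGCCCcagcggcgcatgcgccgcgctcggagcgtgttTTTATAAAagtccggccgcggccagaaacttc
CXCL12 held 3 GC boxes, no TATAAA and 31 CpG dinucleotides, more CpG than 89.4% of the 27305 RefSeq promoters of this length, whose median was 11. CXCR4 held 3 GC boxes, a TATAAA with an overlapping match on the other strand, and 24 CpG. A GC box was present in 42.3% of all promoters and TATAAA in 11.1%. No methylation or binding was measured here, and the matches are descriptions of sequence.

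CXCL12 (ENSG00000107562, chr10:44370165-44386493, minus strand, GRCh38 in GENCODE v29) was nearly silent in Non-target, with 2, 1 and 1 fragments in its libraries, or 0.0205, 0.0106 and 0.00938 FPKM. It was at 0.618, 0.758 and 0.681 FPKM in the C9orf89-CKO wells and at 0.907, 1.2 and 0.868 FPKM in the MAGI2-CKO wells. It was at 0.243, 0.210 and 0.242 FPKM in the MLPH-CKO wells and at 3.06, 3.13 and 3.23 FPKM in the RHBDD2-CKO wells. Every CKO well lay above every Non-target well, and the clones did not overlap each other. CXCL12 lay under the filter of 0.5 FPKM in Non-target and MLPH-CKO and was tested only because of its level in the other clones. The log2FC, in the order of clones given above, was 4.84, 3.26, 2.79 and 1.55 (SE 0.16), with adjusted p-values of 7.19e-10, 1.95e-08, 1.15e-07 and 1.69e-05 (limma). With only 4 Non-target fragments the linear ratio is poorly bounded from above: pooled over wells it was 51.3-fold with an exact 95% counting interval of 19.7 to 190.0 in the C9orf89-CKO clone, and 234-fold with an interval of 91.0 to 860.0 in the RHBDD2-CKO clone.

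The order of CXCL12 among the clones was RHBDD2-CKO, MAGI2-CKO, C9orf89-CKO, MLPH-CKO. The clones were compared in the same fit, and 5 of the 6 pairs differed at the threshold, with the RHBDD2-CKO clone above the MAGI2-CKO clone by 1.58 and above the MLPH-CKO clone by 3.29 on the log2 scale. The MAGI2-CKO and C9orf89-CKO clones differed by 0.47 (95% interval 0.12 to 0.82, adjusted p = 0.0561), and this pair passed the threshold under 4 of 25 alternatives, with a pseudocount of 1 (adjusted p = 0.0299), without the trend (0.00897), with voom on recovered fragments (0.0226) and without Non-target replicate 1 (0.0496). Genes around CXCL12 were more often higher than lower: among the 50 nearest tested genes (chr10:42475543-49970203), the median log2FC was 0.12 in the RHBDD2-CKO clone with 13 higher and 10 lower, 0.39 in MAGI2-CKO (17 and 1), 0.41 in C9orf89-CKO (21 and 2) and 0.19 in MLPH-CKO (14 and 4). Of all tested genes 17.4% were higher and 16.7% lower in RHBDD2-CKO, where the neighbours went both ways, and 2747 of 16175, 12.9% and 14.5% were higher in MAGI2-CKO, C9orf89-CKO and MLPH-CKO. The part of this regional shift in the CXCL12 difference was not tested.

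Genes whose log2 values followed CXCL12 most closely over the 15 libraries were OTUD3 (r = 0.959), a deubiquitinase, RRP1B (r = 0.955), a nucleolar protein, and RWDD2B (r = 0.952). OTUD3 rose from 3.12 ± 0.406 FPKM in Non-target to 6.97 ± 0.314 FPKM in RHBDD2-CKO, in the same order of clones as CXCL12. The correlations are descriptions over libraries of 5 clones, and the 3 wells of a clone are not independent points.

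CXCR4 (ENSG00000121966, chr2:136114349-136118165, minus strand) was expressed in every library, and the MAGI2-CKO clone stood far above the rest. It was at 3.84, 2.38 and 2.82 FPKM in Non-target and at 34.9, 34.6 and 36.4 FPKM in the MAGI2-CKO wells. The C9orf89-CKO wells (3.21, 3.47 and 3.24 FPKM) and the MLPH-CKO wells (4.33, 3.17 and 3.83 FPKM) overlapped Non-target. The RHBDD2-CKO wells, at 4.46, 4.22 and 4.09 FPKM, lay just above it. The log2FC was 3.53 ± 0.14 in MAGI2-CKO (adjusted p = 4.57e-09), and 29 of the 16175 tested genes rose more in that clone. Against C9orf89-CKO the MAGI2-CKO clone was higher by a log2FC of 3.38, and RHBDD2-CKO and MLPH-CKO were below it with log2FC of -3.02 and -3.20. The 50 nearest tested genes on chromosome 2 had a median log2FC of -0.03 in the MAGI2-CKO clone, with 6 higher and 9 lower.

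Small CXCR4 differences in the other clones depended on single wells and on the libraries in the fit. The RHBDD2-CKO clone was higher by 0.51 ± 0.14 (adjusted p = 0.0140), and this call was lost without Non-target replicate 2 (adjusted p = 0.0642) and with only the 6 libraries compared (0.0817). The C9orf89-CKO and MLPH-CKO clones had a log2FC of 0.16 (adjusted p = 0.462) and 0.33 (adjusted p = 0.0962), and without Non-target replicate 1 these became 0.34 and 0.52, with adjusted p-values of 0.0449 and 0.00561. For the MLPH-CKO clone the call was also gained without its own replicate 2, at 0.45 (adjusted p = 0.0437), and without replicate 1 of every group the C9orf89-CKO and MLPH-CKO values were 0.36 (adjusted p = 0.0386) and 0.41 (adjusted p = 0.0203). The genes closest to CXCR4 over the libraries, looked up after its values were seen, were NR4A2 (r = 0.966), a nuclear receptor induced by extracellular signals, BCL2L11 (r = 0.95), the pro-apoptotic BIM, and RND3 (r = 0.947), a small GTPase. NR4A2 rose from 0.710 ± 0.134 FPKM to 3.82 ± 0.0670 FPKM in the MAGI2-CKO clone.

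**Figure D2:**
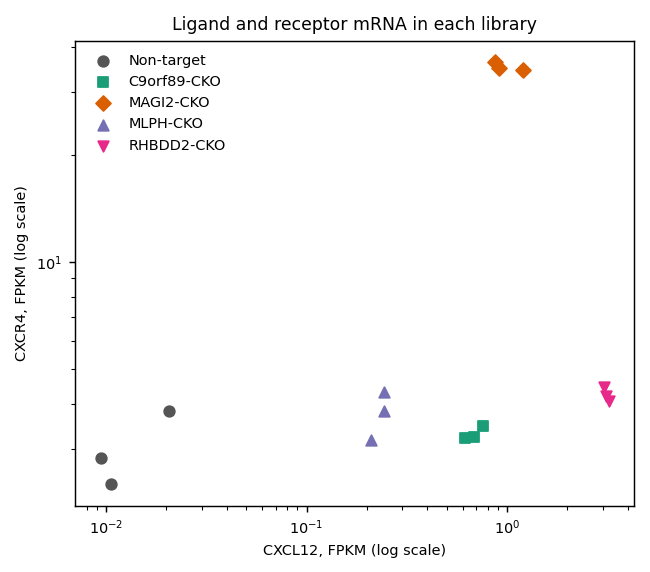
FPKM of CXCR4 (vertical, log scale) against FPKM of CXCL12 (horizontal, log scale) in each of the 15 libraries. The clones spread along CXCL12 from 0.210 to 3.23 FPKM while CXCR4 stayed between 2.38 and 4.46 FPKM in all groups but MAGI2-CKO.

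The balance of CXCR4 to CXCL12 mRNA, both per exon length, differed between all groups. CXCR4 per CXCL12 in FPKM was 187 to 301 in Non-target, where CXCL12 rests on 1 or 2 fragments, and 1.27 to 1.46 in RHBDD2-CKO. It was 28.7 to 41.9 in MAGI2-CKO, 4.58 to 5.20 in C9orf89-CKO and 15.1 to 17.8 in MLPH-CKO. The groups did not overlap in this ratio.

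ACKR3 (ENSG00000144476, chr2:236567787-236582358), the scavenger of CXCL12, was close to undetected. Its libraries held 0, 4 and 3 fragments in Non-target, 0, 0 and 1 in RHBDD2-CKO and 2, 0 and 3 in MAGI2-CKO. All libraries of the C9orf89-CKO and MLPH-CKO clones held 0, which over a group allows up to 0.0260 and 0.0240 FPKM (3 fragments). No difference of ACKR3 was detectable at this depth.

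DPP4 (ENSG00000197635, chr2:161992241-162074542) was low in all groups and split the clones. It was at 0.460, 0.671 and 0.637 FPKM in Non-target and at 0.979, 1.01 and 0.791 FPKM in the C9orf89-CKO wells. It was at 0.286, 0.177 and 0.393 FPKM in RHBDD2-CKO, 0.257, 0.247 and 0.266 FPKM in MAGI2-CKO and 0.317, 0.381 and 0.457 FPKM in MLPH-CKO. All C9orf89-CKO wells lay above, and all MAGI2-CKO, MLPH-CKO and RHBDD2-CKO wells below, the Non-target wells. Only the C9orf89-CKO wells and Non-target replicates 2 and 3 reached the filter of 0.5 FPKM. DPP4 was thus tested only because of its level in C9orf89-CKO. The fall passed the test in MAGI2-CKO (log2FC -0.94 ± 0.24, adjusted p = 0.00740) and in RHBDD2-CKO (log2FC -0.87 ± 0.24, adjusted p = 0.0127). The RHBDD2-CKO call was lost without Non-target replicate 2 (adjusted p = 0.0510), without RHBDD2-CKO replicate 2 (adjusted p = 0.0529) and with only the 6 libraries compared (0.0697). MLPH-CKO had a log2FC of -0.50 (adjusted p = 0.131) and C9orf89-CKO of 0.58 (adjusted p = 0.0888), and the latter passed the threshold with a pseudocount of 1 (0.0324), without the trend (0.0467) and with voom on recovered fragments (0.0289).

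Other enzymes known to trim CXCL12 or further chemokines followed no common direction. Of 15 listed proteases 6 were tested, and the higher and lower calls numbered 2 and 2 in RHBDD2-CKO, 1 and 2 in MAGI2-CKO, 1 and 0 in C9orf89-CKO and 3 and 1 in MLPH-CKO, DPP4 included. That makes 4, 3, 1 and 4 of the 6 tested, beside 34.1%, 36.1%, 26.0% and 30.1% of all tested genes. DPP8, a cytosolic relative of DPP4, rose from 4.42 ± 0.383 FPKM in Non-target to 6.05 ± 0.272 FPKM in MAGI2-CKO (log2FC 0.45) and 5.82 ± 0.158 FPKM in MLPH-CKO (log2FC 0.39). MMP2, a gelatinase that clips the amino terminus of CXCL12 and was picked out after its values were seen, was at 1.35 ± 0.0987 FPKM in the Non-target wells but 0.189 ± 0.0340 FPKM in RHBDD2-CKO (log2FC -2.33, adjusted p = 2.43e-07). It also fell in MAGI2-CKO and MLPH-CKO, by 0.64 and 0.69 on the log2 scale. CTSK, the collagen-degrading cathepsin K and likewise picked afterwards, rose from 0.194 ± 0.0321 FPKM to 0.601 ± 0.141 FPKM in MLPH-CKO and 0.605 ± 0.176 FPKM in RHBDD2-CKO, and its log2FC was 1.03 in C9orf89-CKO. CTSK lay under the filter of 0.5 FPKM in Non-target and was tested only because of its level in the clones. Its calls are among those counted above.

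**Figure D3:**
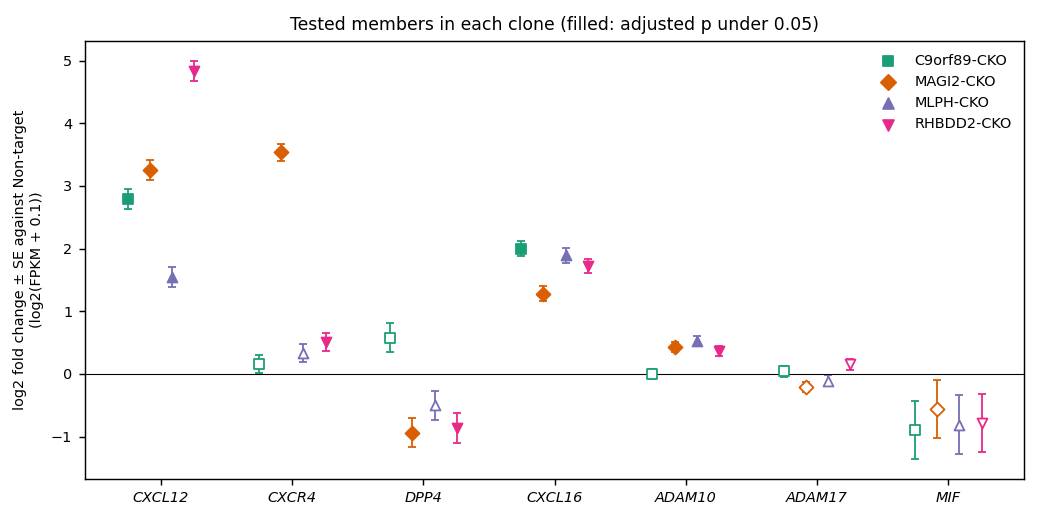
log2 fold change against Non-target (vertical axis, with SE) of the 7 tested genes in each clone, filled where the adjusted p was under 0.05. CXCL12 and CXCL16 are filled and above 0 in all 4 clones, while CXCR4 in MAGI2-CKO is the tallest point among the receptors and proteases at 3.53.

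CXCL16 (ENSG00000161921, chr17:4733526-4739922, minus strand) was the other ligand that rose in every clone. It was at 2.25, 2.17 and 2.08 FPKM in Non-target and at 8.35, 9.50 and 9.08 FPKM in the C9orf89-CKO wells. It was at 7.02, 8.64 and 6.64 FPKM in RHBDD2-CKO, 5.09, 5.54 and 5.65 FPKM in MAGI2-CKO and 7.10, 8.30 and 9.72 FPKM in MLPH-CKO. All CKO wells lay above all Non-target wells, and the MAGI2-CKO wells lay below all wells of the other clones. In the order of clones above, the log2FC was 1.72, 1.28, 2.00 and 1.89 (SE 0.11), with adjusted p-values of 3.23e-07, 3.16e-06, 1.06e-07 and 1.44e-07, and the ratio of pooled levels was 3.43, 2.50, 4.15 and 3.87. The MAGI2-CKO clone was below C9orf89-CKO by 0.72, and MLPH-CKO and RHBDD2-CKO were above MAGI2-CKO by 0.61 and 0.44, all past the threshold. The remaining clones did not differ past the threshold: MLPH-CKO against C9orf89-CKO was -0.11 (95% interval -0.36 to 0.14), RHBDD2-CKO against C9orf89-CKO -0.28 (-0.52 to -0.03, adjusted p = 0.0920) and RHBDD2-CKO against MLPH-CKO -0.17 (-0.42 to 0.08).

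Unlike CXCL12, CXCL16 lay among neighbours with little shift, since the median log2FC of its 50 nearest tested genes ranged from -0.06 in RHBDD2-CKO to 0.13 in MAGI2-CKO. Of its exon bases 3.04% are shared with MED11. Over the 15 libraries its closest genes were FLCN (r = 0.974), the tumour suppressor folliculin of lysosomal nutrient sensing, AC010789.1 (r = 0.969) and KDELR3 (r = 0.963), a receptor that returns proteins to the endoplasmic reticulum. FLCN lies on chromosome 17 as well, and rose from 2.78 ± 0.249 FPKM in Non-target to levels from 5.88 ± 0.556 FPKM (MAGI2-CKO) to 7.81 ± 0.715 FPKM (C9orf89-CKO). AC010789.1 held no fragment in Non-target and ranged from 1.83 ± 0.720 FPKM in the MAGI2-CKO clone to 4.80 ± 1.15 FPKM in the C9orf89-CKO clone.

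The wider chemokine family was mostly silent. Of 46 chemokine ligand genes, 22 were at 0 in all libraries, 4 were tested, and CXCL12 and CXCL16 were the 2 that exceeded 1 FPKM in any library, with 0.962 FPKM as the highest value of the rest. The other tested ligands were CXCL2, a neutrophil attractant that fell in C9orf89-CKO (log2FC -1.34, adjusted p = 0.00954), and PF4, with no call. Of 24 chemokine receptor genes, CXCR4 and CCR10 exceeded 1 FPKM and were tested, and the highest value of the rest was 0.320 FPKM. CCR10, the receptor of CCL27 and CCL28 in skin and mucosa, had a log2FC of 1.16 in C9orf89-CKO (adjusted p = 0.0108, and 0.0883 without replicate 1 of every group) and 1.54 in MLPH-CKO, but 31.3% of its exon bases are shared with exons on the opposite strand, so its counts are uncertain.

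CXCR6 (ENSG00000172215, chr3:45940933-45948353), the receptor of CXCL16, was at the edge of detection. Its libraries held 2, 2 and 1 fragments in Non-target, 6, 5 and 7 in RHBDD2-CKO, 1, 3 and 1 in MAGI2-CKO, 3, 4 and 1 in C9orf89-CKO and 1, 2 and 2 in MLPH-CKO. The RHBDD2-CKO libraries were the highest, and their pooled level was 3.44-fold that of Non-target with an exact 95% counting interval of 1.23 to 11.9. When the filter was dropped, limma gave CXCR6 a log2FC of 0.60 in RHBDD2-CKO (adjusted p = 0.0201) and no call in the other clones.

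ADAM10 and ADAM17, the sheddases of CXCL16, were expressed at similar levels per length in Non-target, and their ratio shifted toward ADAM10 in the clones where it rose. ADAM10 (ENSG00000137845, chr15:58588807-58749978) was at 3.72, 3.24 and 3.19 FPKM in Non-target and at 3.53, 3.33 and 3.27 FPKM in C9orf89-CKO. It was at 4.66, 4.22 and 4.26 FPKM in RHBDD2-CKO, 4.99, 4.28 and 4.46 FPKM in MAGI2-CKO and 5.10, 4.79 and 4.79 FPKM in MLPH-CKO. The wells of these 3 clones all lay above those of Non-target and C9orf89-CKO. In these clones the log2FC was 0.36, 0.42 and 0.52 (SE 0.08), with adjusted p-values of 0.00343, 0.00103 and 0.000322, and it was -0.00 in C9orf89-CKO (95% interval -0.17 to 0.17). Neighbouring genes moved with it in a pair of these clones: the 50 nearest tested genes on chromosome 15 had a median log2FC of 0.40 in MAGI2-CKO with 23 higher and 3 lower, 0.56 in MLPH-CKO (35 and 2), 0.07 for the RHBDD2-CKO clone (9 and 6) and 0.03 in C9orf89-CKO (2 and 3). The 9 higher in RHBDD2-CKO are near the share of all tested genes there (17.4%). The part of this regional shift in the ADAM10 difference was not tested.

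ADAM17 (ENSG00000151694, chr2:9488486-9556732) showed no call against Non-target in the fit without a block for the replicate number. It was at 3.65, 3.33 and 3.32 FPKM in Non-target, and its log2FC, in the order of clones above, was 0.15, -0.21, 0.04 and -0.11, with adjusted p-values from 0.0656 to 0.769. With the replicate number as a block, ADAM17 was called lower in MAGI2-CKO (limma adjusted p = 0.0479). Between clones it was higher in RHBDD2-CKO than in MAGI2-CKO by 0.36 (adjusted p = 0.00346). It was lower in MAGI2-CKO than in C9orf89-CKO by a log2FC of -0.25 (adjusted p = 0.0467), and this call was lost under 15 of 25 alternatives, among them no filter on low values (0.0757), quantile normalization (0.0590) and only the 6 libraries compared (0.123), with the highest adjusted p at 0.179 without MAGI2-CKO replicate 3. Of its exon bases 13.6% are shared with other genes, most of these with IAH1. The ratio of ADAM10 to ADAM17 was 0.961 to 1.02 in Non-target, 1.11 to 1.18 in RHBDD2-CKO, 1.37 to 1.65 in MAGI2-CKO, 0.878 to 1.06 in C9orf89-CKO and 1.45 to 1.66 in MLPH-CKO.

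Genes that regulate these sheddases were mostly called at a share near that of all tested genes. Of 20 listed genes (further ADAM proteases, the iRhoms that escort ADAM17, the TspanC8 tetraspanins that escort ADAM10, TIMP inhibitors and activating convertases) 19 were tested, ADAM10 and ADAM17 included. The higher and lower calls numbered 1 and 5 in RHBDD2-CKO, 5 and 2 in MAGI2-CKO, 2 and 2 in C9orf89-CKO and 5 and 3 in MLPH-CKO, with list medians of -0.09, 0.07, 0.06 and 0.12. These are 31.6%, 36.8%, 21.1% and 42.1% of the list, beside 34.1%, 36.1%, 26.0% and 30.1% of all tested genes, and without replicate 1 of every group the C9orf89-CKO calls were 4 and 3, beside 32.4% of all tested genes. TSPAN15, a TspanC8 partner of ADAM10, rose from 7.70 ± 1.31 FPKM in Non-target to 11.7 ± 0.538 FPKM in MAGI2-CKO, 11.8 ± 0.385 FPKM in C9orf89-CKO and 12.6 ± 1.39 FPKM in MLPH-CKO (log2FC 0.62, 0.63 and 0.71) and was at 7.11 ± 0.235 FPKM in RHBDD2-CKO. TIMP3, an inhibitor of ADAM10 and ADAM17, fell in RHBDD2-CKO from 11.0 ± 0.221 to 6.46 ± 0.214 FPKM (log2FC -0.76, adjusted p = 2.03e-06).

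Signalling and trafficking genes downstream of CXCR4 and ACKR3 were called at shares near those of all tested genes, except for a lower share in MAGI2-CKO. There were more calls in C9orf89-CKO and MLPH-CKO without replicate 1. Of 16 listed genes (inhibitory G protein subunits, arrestins, GRK kinases, tyrosine sulfotransferases and endosomal sorting genes) 15 were tested, with 6 called in RHBDD2-CKO (40.0%) and 4 in each other clone (26.7%). Of all tested genes, 34.1% were called in RHBDD2-CKO, 36.1% in MAGI2-CKO, 26.0% in C9orf89-CKO and 30.1% in MLPH-CKO. Without replicate 1 of every group, 8 were called in C9orf89-CKO and 7 in MLPH-CKO, 4 of them lower in each clone, and calls over all tested genes also rose, to 32.4% and 36.9%. STAM, an endosomal adaptor that takes part in CXCR4 sorting, was higher in all 4 clones, by 0.23, 0.43, 0.54 and 0.35 in the order above. The RHBDD2-CKO call (adjusted p = 0.0337) was lost when any of its wells was left out (largest adjusted p 0.113, without its replicate 1). It was also lost without Non-target replicate 2 (0.0901) or 3 (0.106), without replicate 1 of every group (0.0722) and with no filter on low values (0.0534). The MAGI2-CKO clone, where CXCR4 was high, had lower TPST1, a sulfotransferase that modifies receptor tyrosines (log2FC -0.88, adjusted p = 0.000187), and lower GNAI1, an inhibitory G protein subunit (log2FC -0.72, adjusted p = 8.84e-05). These genes had log2FC between -0.11 and 0.04 in the other clones. TPST1 (chr7:66205199-66420543) and GNAI1 (chr7:79768028-80226181) lie on chromosome 7, as do MAGI2 and RHBDD2. RHBDD2 was lower in the MAGI2-CKO clone as well, and the part of this shared location was not tested.

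**Figure D4:**
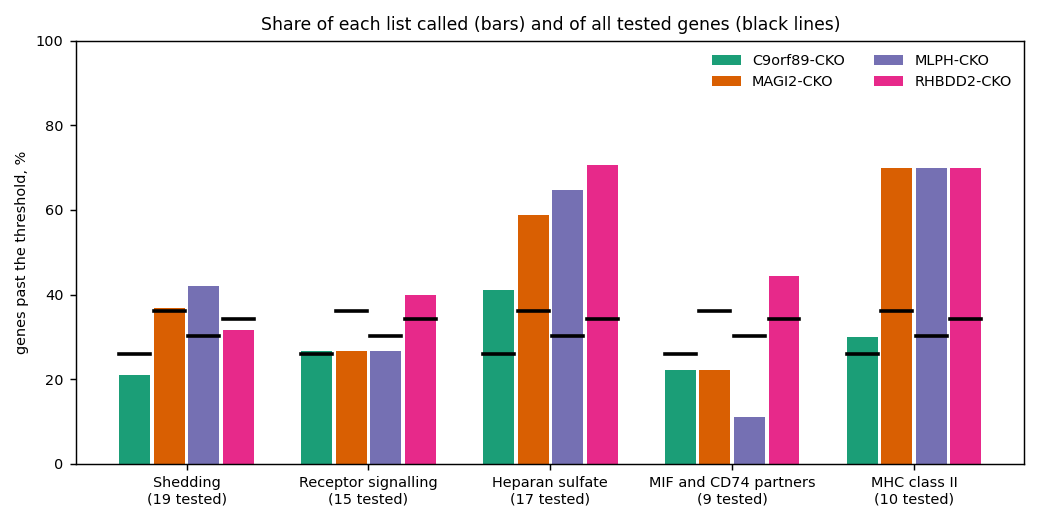
Share of tested genes past the threshold (vertical axis, percent, bars) in 5 gene lists, by clone, with black lines for the share of all tested genes in the same clone. The heparan sulfate bars run from 41.2% to 70.6% and lie above the lines in all 4 clones, while receptor signalling ranges from 26.7% to 40.0%.

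Genes of heparan sulfate proteoglycans, which bind and present CXCL12 at the cell surface, and of enzymes that build or edit their chains were called often and mostly lower. Of 18 listed genes (syndecans, glypicans, chain-building and sulfating enzymes and the sulfatases that edit the chains) 17 were tested, and the higher and lower calls numbered 1 and 11 in RHBDD2-CKO, 1 and 9 in MAGI2-CKO, 1 and 6 in C9orf89-CKO and 1 and 10 in MLPH-CKO. The list medians were -0.49, -0.30, -0.10 and -0.30, where the median over all tested genes was within 0.01 of 0. Of all tested genes, 16.7%, 19.1%, 13.1% and 15.5% were lower in the same clones. SDC3, GPC4, GPC5 and SULF2 were lower in all 4, which 3.26% of tested genes were. GPC3 and GPC4 lie close together on chromosome X, as do GPC5 and GPC6 on chromosome 13. The part of shared location was not tested.

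GPC4, a glypican, fell from 16.9 ± 0.492 FPKM in Non-target to 8.69 ± 0.260 FPKM in RHBDD2-CKO, 6.96 ± 0.321 FPKM in MAGI2-CKO, 9.57 ± 0.867 FPKM in C9orf89-CKO and 13.3 ± 1.22 FPKM in MLPH-CKO (log2FC -0.95, -1.27, -0.82 and -0.35). SULF2, an extracellular sulfatase that removes sulfate groups from heparan chains, had log2FC of -0.85, -0.52, -0.29 and -0.20, and the MLPH-CKO call (adjusted p = 0.0357) was lost without Non-target replicate 1 (0.0540), 2 (0.0804) or 3 (0.1003) and without MLPH-CKO replicate 1 (0.111) or 3 (0.101) or replicate 1 of every group (0.0691), and also with no filter on low values (0.0508), quantile normalization (0.0583) and only the 6 libraries compared (0.0650). SDC3, a syndecan, was lower by 0.33 to 0.61 on the log2 scale. The RHBDD2-CKO clone, with the most CXCL12, had the lowest SULF1, the related sulfatase, at 0.666 ± 0.0759 against 3.66 ± 0.497 FPKM in Non-target (log2FC -2.29, adjusted p = 4.05e-08), and GPC3 at 10.8 ± 0.538 against 33.3 ± 0.587 FPKM (log2FC -1.62). GPC3 also fell by 1.15 in MAGI2-CKO and had a log2FC of -0.29 in MLPH-CKO (adjusted p = 0.00740). SULF1 was lower in C9orf89-CKO and MLPH-CKO as well, with log2FC of -0.54 and -0.55.

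**Figure D5:**
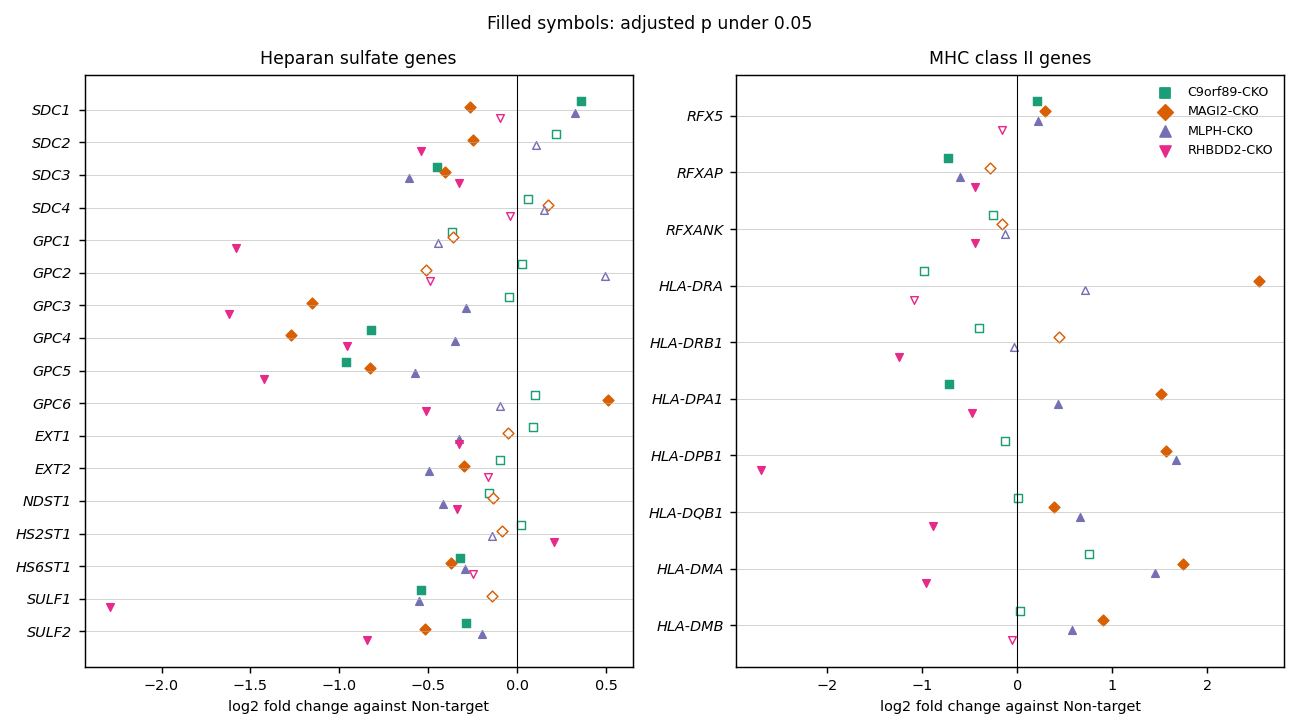
log2 fold change against Non-target (horizontal axis) of the tested heparan sulfate genes (left) and MHC class II genes (right) in each clone, filled where the adjusted p was under 0.05. Heparan sulfate symbols lie mostly left of 0, with SULF1 in RHBDD2-CKO at -2.29, and HLA-DPB1 lies right of 0 at 1.56 in MAGI2-CKO and left at -2.70 in RHBDD2-CKO.

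MIF (ENSG00000240972, chr22:23894004-23895227, plus strand) was low and was not called in any clone in the fit without a block for the replicate number. Its libraries held 6 to 25 fragments. It was at 1.40, 1.22 and 0.719 FPKM in Non-target. The RHBDD2-CKO wells held 0.844, 0.426 and 0.554 FPKM and the MAGI2-CKO wells 1.16, 0.558 and 0.508 FPKM. It was at 0.819, 0.300 and 0.595 FPKM in C9orf89-CKO and 1.23, 0.479 and 0.295 FPKM in MLPH-CKO. Replicate 1 was the highest well of every group, and all clones overlapped Non-target. In the order of clones above, the log2FC was -0.78, -0.56, -0.89 and -0.81 with an SE of 0.46, and adjusted p-values were 0.220, 0.381, 0.182 and 0.219. In the MLPH-CKO clone the value became -1.30 without its replicate 1 (adjusted p = 0.0418) and -1.12 without replicate 1 of every group (adjusted p = 0.0464). With the replicate number as a block, limma called MIF lower in C9orf89-CKO (adjusted p = 0.0335), MLPH-CKO (0.0466) and RHBDD2-CKO (0.0494). The labels do not pair the wells by this number.

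The MIF counts are uncertain because its exons are shared. Of 1109 exon bases 687 (61.9%) overlap MIF-AS1 on the opposite strand, and 357 of them also overlap AP000350.4 on the same strand, leaving 422 bases that belong to MIF alone. How fragments in shared bases were counted, and whether the libraries kept strand, is not given in the sources used here. Genes most like MIF over the libraries were EIF4E2 (r = 0.913), PDCD5 (r = 0.906) and MRPL33 (r = 0.903).

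CD74 (ENSG00000019582, chr5:150401637-150412929), the MIF receptor and invariant chain of MHC class II, held 1 to 7 fragments per library and no detectable difference. Its group totals were 9 fragments in Non-target, 6 in RHBDD2-CKO, 16 in MAGI2-CKO, 10 in C9orf89-CKO and 10 in MLPH-CKO. CD44, the MIF co-receptor and a hyaluronan receptor, was the clearest change on this side, although it lay under the filter and was picked out after its values were seen. It held 45, 45 and 66 fragments in the Non-target libraries (0.280, 0.291 and 0.376 FPKM), 3, 0 and 1 in RHBDD2-CKO, and 0 in every library of the other clones. Against the floor of 3 fragments over a group, CD44 was at least 61.8-fold lower in MAGI2-CKO, 54.2-fold in C9orf89-CKO and 58.7-fold in MLPH-CKO, and it was 40.8-fold lower in RHBDD2-CKO with a counting interval of 15.6 to 152. It was not part of the test across genes.

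Of 14 listed partners and processing enzymes of MIF and CD74, 9 were tested, CXCR4 included, with higher and lower calls of 2 and 2 in RHBDD2-CKO, 2 and 0 in MAGI2-CKO, 0 and 2 in C9orf89-CKO and 1 and 0 in MLPH-CKO. These are 44.4%, 22.2%, 22.2% and 11.1% of the list, above the share of all tested genes in RHBDD2-CKO (34.1%) and below it in the other clones (36.1%, 26.0% and 30.1%). Without replicate 1 of every group the calls were 1 and 4 in RHBDD2-CKO, 2 and 2 in MAGI2-CKO, 1 and 3 in C9orf89-CKO and 2 and 4 in MLPH-CKO, beside 42.0%, 40.4%, 32.4% and 36.9% of all tested genes. CTSL, a lysosomal cathepsin that can degrade the invariant chain, fell from 32.4 ± 0.653 FPKM in Non-target to 22.9 ± 0.864 FPKM in C9orf89-CKO (log2FC -0.50) and 19.8 ± 3.59 FPKM in RHBDD2-CKO (log2FC -0.72). SPPL2A, the protease that cuts the last membrane fragment of CD74, rose in MAGI2-CKO and MLPH-CKO by 0.48 and 0.68, and was picked afterwards. DDT, the MIF homologue, had a log2FC of 1.19 in RHBDD2-CKO (adjusted p = 0.00658, and 0.0680 without replicate 1 of every group), at 0.658 ± 0.0649 FPKM and with 37.8% of its exon bases shared with other genes. DDT was highest in that clone and near the filter of 0.5 FPKM, so it may have been tested only because of its level there. Its call is among those counted above.

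MHC class II genes, most of whose chains CD74 escorts, split the clones while CD74 itself stayed near 0, and their transcription factors CIITA, RFX5, RFXAP and RFXANK, and CD74, were listed with them. Of 13 listed genes 10 were tested, with higher and lower calls of 0 and 7 in RHBDD2-CKO, 7 and 0 in MAGI2-CKO, 1 and 2 in C9orf89-CKO and 6 and 1 in MLPH-CKO. Called in either direction were thus 7 of 10 in RHBDD2-CKO, MAGI2-CKO and MLPH-CKO, beside 34.1%, 36.1% and 30.1% of all tested genes, and 3 of 10 in C9orf89-CKO, near its background of 26.0%. These calls include RFX5, higher in MAGI2-CKO, C9orf89-CKO and MLPH-CKO, RFXAP, lower in all clones but MAGI2-CKO, and RFXANK, lower in RHBDD2-CKO. They also include HLA-DRA, higher in MAGI2-CKO, and HLA-DMA, higher in MAGI2-CKO and MLPH-CKO and lower in RHBDD2-CKO. Both had a mean under 1 FPKM over the libraries. They may have been tested only because of their level in the clones where they were higher. The RFX5 call in C9orf89-CKO was lost under 7 alternatives, with limma adjusted p-values up to 0.110 (without Non-target replicate 2). In MLPH-CKO the RFX5 call was lost under 4 alternatives, up to 0.102 with only the 6 libraries compared. The RFXAP call in RHBDD2-CKO was also lost under 4, up to 0.122 without RHBDD2-CKO replicate 3. HLA-DMA in RHBDD2-CKO lost its call under 6, up to a limma adjusted p of 0.137 with only the 6 libraries compared. HLA-DMB in MLPH-CKO lost its call under 6 and HLA-DQB1 in MAGI2-CKO under 5. Their largest limma adjusted p-values were 0.139 and 0.138, without replicate 1 of every group. Without replicate 1 of every group the MLPH-CKO calls were 3 and 1, near the share of all tested genes under that setting (36.9%). CIITA, the class II transactivator, was at most 0.053 FPKM. HLA-DPB1 measured 1.23 ± 0.164 FPKM in Non-target wells, 0.116 ± 0.0906 FPKM in RHBDD2-CKO, 3.81 ± 0.415 FPKM in MAGI2-CKO and 4.22 ± 1.22 FPKM in MLPH-CKO (log2FC -2.70, 1.56 and 1.67). HLA-DPA1, its partner chain, rose by 1.52 in MAGI2-CKO and fell by 0.72 in C9orf89-CKO, and its calls in MLPH-CKO (log2FC 0.43, adjusted p = 0.0437) and RHBDD2-CKO (-0.47, adjusted p = 0.0260) were lost when single wells were left out, with adjusted p-values up to 0.170 without MLPH-CKO replicate 1 (0.353 without replicate 1 of every group) and 0.107 without RHBDD2-CKO replicate 3. The HLA genes are near-identical copies of each other in parts, so fragments may be split between them. Of 6 fibroblast markers COL1A1 was the most abundant, their sum was 3.09 to 5.86 FPKM, COL1A1 was higher in MAGI2-CKO, C9orf89-CKO and MLPH-CKO by 0.93, 0.74 and 0.83, and COL3A1 was lower in all 4 clones by 1.60 to 2.59. Their part in these results was not tested.

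Between clones, the 7 tested genes gave 2 calls for RHBDD2-CKO against MLPH-CKO (background 37.0%), 4 for RHBDD2-CKO against MAGI2-CKO (background 41.6%) and 3 for RHBDD2-CKO against C9orf89-CKO (29.3%). MAGI2-CKO against C9orf89-CKO gave 2 higher, where 9.76% of tested genes were, and 3 lower (22.5% either way). MLPH-CKO against MAGI2-CKO gave 3 calls (21.2%), of which 2 were lower (9.4% of tested genes). MLPH-CKO against C9orf89-CKO gave 1 higher (6.63%) and 2 lower (7.61%), 3 in all (14.2%). CXCL12 was among the called genes in every pair but MAGI2-CKO against C9orf89-CKO, CXCR4 and CXCL16 in the 3 pairs with MAGI2-CKO, DPP4 and ADAM10 in the 3 pairs with C9orf89-CKO, and ADAM17 in 3 pairs. In profile, C9orf89-CKO thus combined moderate CXCL12 with Non-target levels of CXCR4 and ADAM10 and the highest DPP4, MAGI2-CKO combined CXCL12 near 1 FPKM with high CXCR4 and the lowest CXCL16 of the clones, and RHBDD2-CKO combined the most CXCL12 with the lowest SULF1 and GPC3.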

How the data were processed

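The labels of the 15 libraries gave the group and the replicate number of each. HISAT2 2.0.5, featureCounts 1.5.0-p3 and DESeq2 are named in the submitters' processing notes, and the genome build is not given in the sources used here. The deposited values, 1 per gene and library, are FPKM: each value times the merged exon length of GENCODE v29 was a whole multiple of a step per library for 100% of values (within 0.1), and the fragments so recovered gave the depth, the floor of 3 fragments and the exact Poisson intervals, which cover counting error only. The scaling of the libraries in the deposited FPKM was kept.

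The filter on low values kept genes that reached 0.5 FPKM in 3 or more libraries. The log2 of FPKM plus a pseudocount of 0.1 was modelled in limma 3.58.1 under R 4.3.3, with all 15 libraries in 1 model, eBayes with a trend, 10 contrasts and Benjamini-Hochberg adjustment in each over 16175 genes. The fit was also run on simulated data, and the outcome is not given here. Members and lists were chosen with earlier results of these data known. Named from each of 8 other lists were up to 4 genes called in the same direction in all 4 clones and up to 2 with the largest change in any clone, with a mean of at least 1 FPKM, beside the targeted genes and the 3 genes of highest Pearson r with CXCL12, CXCL16 and MIF. GPC5, CXCL2, CCR10, MMP2, CTSK, CD44, SPPL2A, DDT, the marker genes and the genes like CXCR4 were named after their values were seen. Alternatives were no filter, a mean of at least 1 FPKM, pseudocounts of 1 and 0.01, quantile normalization, no trend, only the 6 libraries compared, the replicate number as a block, voom on recovered fragments, and libraries left out. The result of 1 list of marker genes is not reported here.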

Additional observations from a re-analysis of the deposited data

Results flagged for a closer look

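DPP4 lay above Non-target in all C9orf89-CKO wells and below it in all wells of the other clones, although against Non-target the C9orf89-CKO and MLPH-CKO differences did not pass the test (C9orf89-CKO did under 3 alternatives, with adjusted p-values of 0.0289 to 0.0467). DPP4 passed the filter on low values only because of its level in C9orf89-CKO, the clone with which the others are compared here. The clones themselves differed. In limma's fit across all genes, DPP4 was below C9orf89-CKO by a log2 fold change of -1.45 in RHBDD2-CKO and -1.52 in MAGI2-CKO, with adjusted p-values of 0.000483 and 0.000493, and of -1.08 in MLPH-CKO (adjusted p = 0.00808, or 0.0756 without replicate 1 of every group), with all 3 wells of each clone below the C9orf89-CKO wells. ADAM17 had a log2 fold change against Non-target of 0.15 in RHBDD2-CKO, -0.21 in MAGI2-CKO and -0.11 in MLPH-CKO, none past the threshold. It was higher in RHBDD2-CKO than in MAGI2-CKO by 0.36 (adjusted p = 0.00346) and than in MLPH-CKO by 0.26 (adjusted p = 0.0264), and the latter call was lost without MLPH-CKO replicate 1 (0.0781), MLPH-CKO replicate 3 (0.0635) or RHBDD2-CKO replicate 1 (0.108), with only the 6 libraries compared (0.0660) and without replicate 1 of every group (0.171). Against Non-target itself ADAM17 was not called in any clone, although with the replicate number as a block it was called lower in MAGI2-CKO (adjusted p = 0.0479).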

How the results depend on the processing

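For the 7 tested chemokine axis genes, 49 values were recomputed under up to 25 alternatives, and 1165 of 1214 recomputed values kept their direction and their side of the threshold. CXCL12 and CXCL16 kept their calls in all 4 clones under each alternative that tested them, as did CXCR4 in MAGI2-CKO and ADAM10 in all clones but C9orf89-CKO. The size of the CXCL12 log2 fold change depends on the pseudocount and the scale, and ran from 2.03 with a pseudocount of 1 to 7.46 with voom on recovered fragments in the RHBDD2-CKO clone. MIF passed the threshold with the replicate number as a block in C9orf89-CKO (-0.89, adjusted p = 0.0335), MLPH-CKO (-0.81, 0.0466) and RHBDD2-CKO (-0.78, 0.0494), ADAM17 did so in MAGI2-CKO (-0.21, 0.0479), and MIF passed in MLPH-CKO without replicate 1 of every group (-1.12), while leaving out single wells moved the MLPH-CKO value between -1.30 and -0.42. The replicate numbers do not pair the wells by the labels, and same-numbered wells of 2 groups correlated with a median r of 0.0856 over 30 pairs (0.00103 to 0.312), against -0.0887 over 60 pairs with different numbers (-0.210 to 0.127). In 12 of 15 libraries the mean r was highest with their own number, which is a hint from the data and not from the design. With the block, 7036 genes were called in RHBDD2-CKO, 7169 in MAGI2-CKO, 5718 in C9orf89-CKO and 6292 in MLPH-CKO, where 5511, 5835, 4210 and 4865 were called without it, and MLPH-CKO against C9orf89-CKO went from 2303 to 3640 genes. For RHBDD2-CKO against MLPH-CKO, 1 of the 7 genes rather than 2 was called with only the 6 libraries compared, without MLPH-CKO replicate 1 or 3, without RHBDD2-CKO replicate 1 and without replicate 1 of every group. In C9orf89-CKO, values near 0 changed sign when libraries were left out: ADAM10 ran from -0.0407 to 0.0667 (0.0359 without replicate 1 of every group) and ADAM17 from -0.0103 to 0.0833 (0.126 without replicate 1 of every group). The causes were not tested. Low counts limit ACKR3, CXCR6, CD74 and MIF, which rest on 0 to 25 fragments a library. For MIF, the part of depth and of shared exons in its low counts was not tested.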
